A study of Mus musculus with 20 samples.

Results

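Livers of B6 mice of 2 ages were compared to describe what differs between old and young liver in this strain. B6 is the inbred strain C57BL/6J, and it is here without any mouse of B6-mtAKR, the conplastic strain in which B6 nuclear DNA is combined with mitochondrial DNA from AKR/J. The comparison holds 10 of the 20 mice of the series, chosen by strain and age label alone. The 5 young mice were 4 months (replicates 1, 4 and 5) or 3 months old (replicates 2 and 3), and the 5 old mice were 20 months (replicates 1, 2 and 5) or 19 months old (replicates 3 and 4). All 10 carry the label of the lower 12A heteroplasmy at OriL, the origin of light strand replication of the mtDNA, and the labels name no treatment. Mice of the study were kept in a 12-hour light-dark cycle with free access to food. For the RNA-seq mice the sources used here give neither the time of day at sampling nor the sex nor the sequencing batch of each mouse, so a difference in time of sampling cannot be told apart from age. Each mouse gave 1 library of total liver RNA, with 71191279 to 103999357 estimated counts per library. In bulk tissue, fewer cells of a type and less RNA per cell cannot be told apart.

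The liver keeps time with a molecular clock. The activators BMAL1 (gene Arntl) and CLOCK, or its relative NPAS2, switch on the genes of their own inhibitors, the PER and CRY proteins, and of the nuclear receptors REV-ERB (Nr1d1, Nr1d2), which in turn repress Arntl. Downstream, the PAR bZIP factors DBP, TEF and HLF and their antagonist NFIL3 pass the rhythm on to metabolic genes, so a liver sampled at another hour has other levels of all of these. Hepatocytes also differ along the lobule and between the sexes, and they are the main site of amino acid breakdown, cholesterol synthesis, bile acid synthesis and detoxification. Genes of the clock are therefore given first and apart from the rest.

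The libraries were liver in both groups. Alb, the gene of serum albumin, stood at 55551 to 89605 CPM in young and 54166 to 117474 CPM in old mice, where CPM is the count of a gene scaled to the TMM-normalized size of its library, and of 10 hepatocyte markers 0 were called by edgeR at the threshold given below (2 at an unadjusted p under 0.05, 1 in DESeq2 and 1 in limma-voom). The Y-linked genes Ddx3y and Eif2s3y had between 0 and 4 counts in every library, Uty between 5 and 28 and Kdm5d between 29 and 119. These were low levels, at most 0.238 CPM for Uty and 1.23 CPM for Kdm5d. Cyp4a12a and Cyp4a12b, which are male-biased in mouse liver, did not pass the filter on low counts. The sex of the mice was not assigned from these counts. None of the adipocyte markers passed the filter on low counts, and Adipoq had at most 4 counts in a library. The share of mtDNA-encoded counts was 8.53 to 17.7% in young and 8.36 to 14.3% in old mice (two-sided exact permutation test over 252 arrangements, p = 0.738), and 45829 to 51323 against 43583 to 53341 transcripts were detected (p = 0.476 in the same test). On the first principal component, with 37.3% of the variance, the ages did not overlap. Old replicate 3 stood apart on the second and had the lowest normalization factor, 0.755. Old replicates 1 and 2 detected the most transcripts of the old group, 53341 and 52449 against 43583 to 46995 in old replicates 3 to 5. The old B6-mtAKR mice split in the same way, with 52194 and 51968 in replicates 1 and 2 against 44683 to 45035 in replicates 3 to 5. The labels name no batch, and a cause of this split was not tested.

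Between old and young B6 mice, 1078 of 15554 genes were higher (6.93%) and 910 were lower in old liver (5.85%) at an adjusted p under 0.05. Genes were tested in edgeR by quasi-likelihood, p-values were adjusted over these 15554 genes by the method of Benjamini and Hochberg, changes are log2 fold changes of old against young, and SE is their standard error. A gene is said to be called when it passes this threshold. The median change over all genes was −0.02 on the log2 scale, and that of the size of the change of called genes was 0.84. At least 2-fold changes were found for 480 of the higher and 302 of the lower genes, at least 8-fold changes for 40 and 29. For 1494 of the 1988 called genes the old mice all lay on one side of the young mice, as they did for 12.4% of all genes tested. Without the 2 young mice of 3 months 718 genes were higher and 666 lower, and without old replicates 1 and 2 these numbers were 641 and 391. Leaving out single mice gave 777 to 1291 higher and 553 to 1100 lower genes, the lower ones numbering least without young replicate 5 (581), old replicate 2 (553) or old replicate 4 (564).

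**Figure D1:**
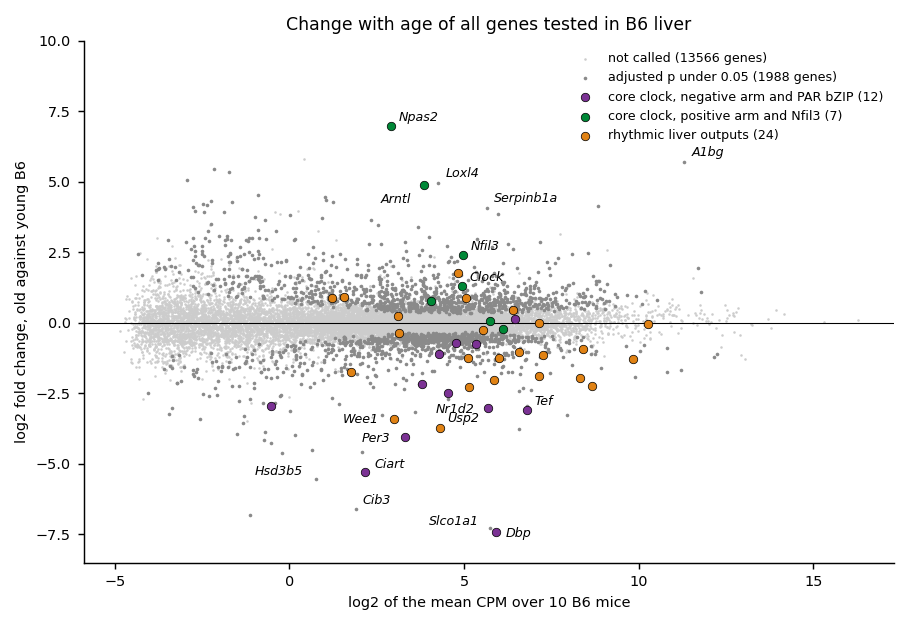
Each point is a gene, with the log2 of its mean CPM over the 10 B6 mice on the horizontal axis and its log2 fold change, old against young, on the vertical axis; dark grey points are the 1988 called genes and coloured points the members of 3 clock lists. Npas2 lies at the top with 6.97 and Dbp at the bottom with −7.40.

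Genes of the clock held the largest changes at both ends. Of 43 genes on 3 lists of clock genes and rhythmic liver genes, 30 were called, 6 higher and 24 lower, where 6.93% of all genes were higher and 5.85% lower, and 8 of the 20 genes with the smallest p in the whole comparison were on these lists. The activators Arntl, Npas2 and Clock were higher in old liver, and most inhibitors and the PAR bZIP factors were lower.

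Of the 7 genes of the positive arm, 4 were called higher and none lower, with a median change of 1.30. Arntl (chr7:113207465-113314126 of GRCm38), the gene of BMAL1, stood at 0.536, 0.993, 1.64, 0.958 and 0.626 CPM in young replicates 1 to 5 and at 32.8, 28.5, 22.4, 28.2 and 27.6 CPM in old replicates 1 to 5. Npas2 (chr1:39193731-39363236), whose protein can take the place of CLOCK, had 0.0846, 0.134, 0.0439, 0.24 and 0.113 CPM in young and 18.8, 16.4, 12.8, 12.5 and 14.6 CPM in old mice. Both genes were at least 10 times as high in every old mouse as in any young mouse, with changes of 4.88 (SE 0.28, adjusted p = 4.62e-07) for Arntl and 6.97 (SE 0.31, adjusted p = 7.25e-08) for Npas2. Clock itself was 15.1, 16.6, 15.0, 25.4 and 17.4 CPM in young and 52.8, 48.5, 23.8, 46.0 and 48.6 CPM in old mice, a change of 1.30 (SE 0.21), and only old replicate 3, at 23.8 CPM, fell within the range of the young mice. Nfil3, the repressor that competes with the PAR bZIP factors, rose from 3.7, 11, 21.6, 5.03 and 8.49 to 52.7, 43.9, 57.1, 48.8 and 60.6 CPM, a change of 2.40 (SE 0.40). Its ranges did not overlap, although the young mice spread more than the old ones. Not called were Cry1, a late inhibitor of the clock, with 0.77 (SE 0.36), and the activating nuclear receptor gene Rora with 0.06 (SE 0.17).

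Of the 12 genes of the negative arm and the PAR bZIP factors, 10 were called lower and none higher, the median change was −2.71, and for 11 of the 12 the ranges of old and young mice did not overlap. Dbp (chr7:45705088-45710203), the best known direct target of CLOCK and BMAL1 in liver, stood at 198, 53.5, 53.7, 133 and 164 CPM in young and 0.424, 0.643, 1.2, 0.603 and 0.739 CPM in old mice. The highest old mouse lay far below the lowest young mouse, and the change was −7.40 (SE 0.50, adjusted p = 3.13e-06). Tef (chr15:81802421-81826863) had 195, 185, 186, 181 and 248.7 CPM in young and 18.8, 25.2, 21.4, 26.8 and 23.7 CPM in old mice, a change of −3.10 (SE 0.15), the smallest p of the list. Hlf, the remaining PAR bZIP factor, fell by less, with −0.75 (SE 0.13).

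Among the inhibitors, Per3 (chr4:151003652-151044665) stood at 21.6, 19.9, 15.8, 12.4 and 24.2 CPM in young and 1.59, 0.994, 0.879, 1.3 and 0.867 CPM in old mice, a change of −4.05 (SE 0.24). Per2 fell from 20.1, 28.6, 26.7, 14.6 and 24.0 to 6.82, 5.95, 3.35, 5.53 and 3.61 CPM, a change of −2.17 (SE 0.23). Per1, which also answers to hormones and feeding, was not called, with −1.10 (SE 0.35, adjusted p = 0.0611), and old replicate 1 was far below the other old mice, at 3.4 against 13.6 to 15.3 CPM. Cry2 was lower by a small and even margin, at 32.5, 28.5, 34.4, 35.8 and 37.7 CPM in young and 20.9, 20.7, 20.6, 19.8 and 20.4 CPM in old mice (change −0.72, SE 0.11). Ciart (chr3:95878503-95882251), which encodes the repressor CHRONO, had 8.74, 8.72, 8.14, 7.41 and 11.1 CPM in young and 0.127, 0.361, 0.377, 0.213 and 0.0569 CPM in old mice, a change of −5.27 (SE 0.37). The REV-ERB genes were both lower: Nr1d1 had 54.4, 15.0, 17.0, 59.0 and 52.3 CPM in young and 8.26, 10.2, 6.53, 3.84 and 6.7 CPM in old mice, with a change of −2.47 (SE 0.42). Nr1d2 had 99.4, 74.5, 72.4, 90.9 and 121 and 13.0, 18.3, 6.93, 9.05 and 9.44 CPM, with a change of −3.01 (SE 0.25). Bhlhe41, the gene of the repressor DEC2, changed by −2.96 (SE 0.54), while its relative Bhlhe40, with 0.15 (SE 0.21), was not called.

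**Figure D2:**
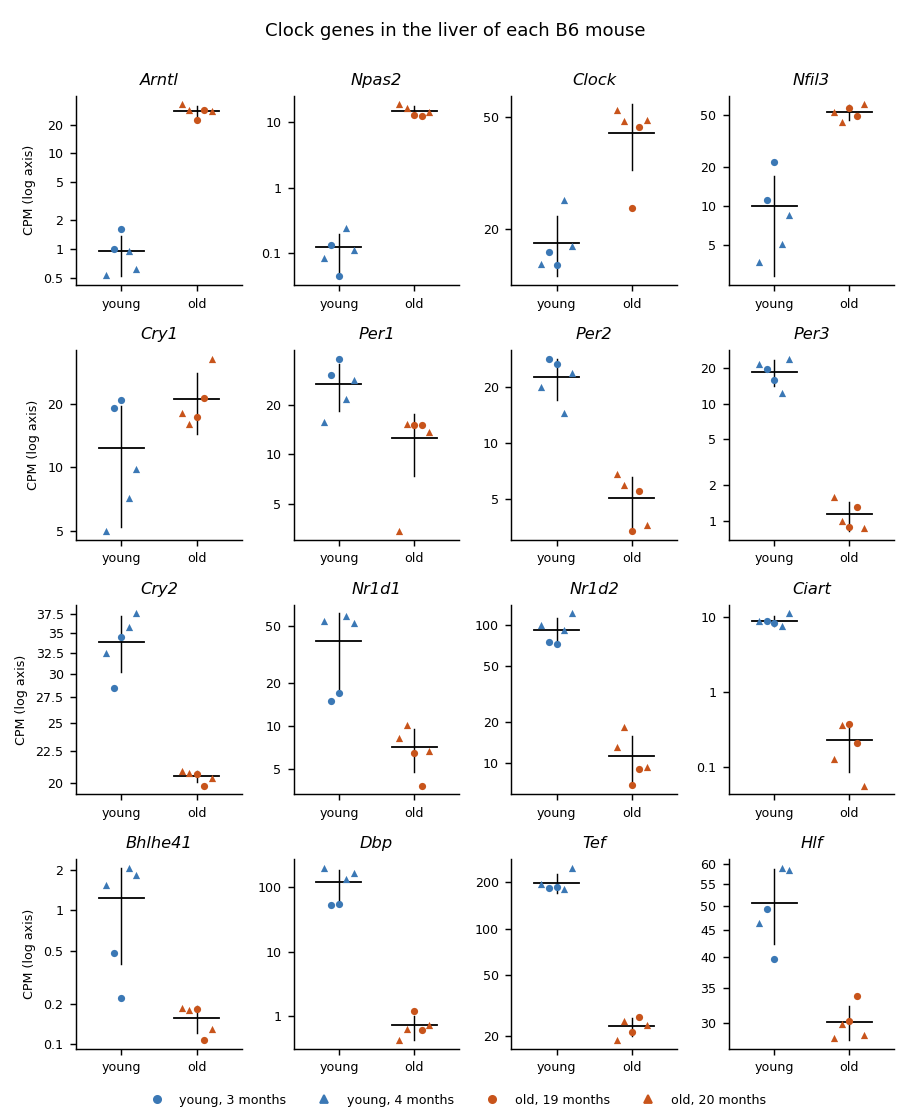
CPM on a log axis for 16 clock genes in each B6 mouse, with young mice in blue and old mice in orange, circles for the mice of 3 or 19 months and triangles for those of 4 or 20 months, a horizontal line for the mean of 5 mice and a vertical line for 1 SD on either side. Arntl, Npas2 and Nfil3 lie higher in every old mouse, Per3, Dbp, Tef and Ciart lie lower in every old mouse, and for Dbp and Nr1d1 the young mice of 3 months lie below those of 4 months.

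Within the young group the clock genes also differed by month, which is given as values only because 2 and 3 mice stand against each other. Dbp was 53.5 to 53.7 CPM in the mice of 3 months and 133 to 198 CPM in those of 4 months, Nr1d1 was 15.0 to 17.0 against 52.3 to 59.0 CPM, and Cry1 was 19.0 to 20.9 against 4.98 to 9.84 CPM. For these 3 genes the mice of 3 months lay on the side of the old mice, whereas Per2, at 26.7 to 28.6 against 14.6 to 24.0 CPM, lay on the other side. Without the 2 mice of 3 months, the negative arm still had 10 genes called lower, the positive arm had 5 called higher, and the rhythmic outputs had 13 lower and 3 higher. Of the rhythmic outputs 11 were lower without old replicates 1 and 2. A single index of clock state was formed as the mean log2 CPM of Arntl, Npas2, Clock and Nfil3 minus that of Dbp, Tef, Nr1d1, Nr1d2, Per3 and Ciart, so it is not independent of these 10 genes. It ran from −5.43 to −3.81 in young and from 3.19 to 3.99 in old mice, with no overlap, so that with this index as a covariate no gene of 15554 was called by edgeR, the only tool run with it, 1308 passed 0.05 before adjustment, and the lowest adjusted value was 0.428. Clock state and age thus could not be told apart in these 10 mice, for genes outside the clock lists as well.

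Promoter stretches of 5 clock genes called in B6 are shown because they hold a match to an element through which these factors are known to act; they were picked for the match, and Dbp and Npas2, the genes with the largest changes, are not among them. The windows are from RefSeq on GRCm38.p6, 250 bases before and 50 after each annotated start, and were matched by symbol. The E-box CACGTG, bound by CLOCK with BMAL1 and by other factors, was found in 4 of the 10 genes of the negative list that have a window (Tef, Per1, Ciart and Bhlhe41), in 11.04% of 11500 tested genes with a window and in 7.15% of all 32851 windows. It was also found in 1 of 6 genes of the positive list (Cry1) and in 4 of 18 rhythmic outputs. The D-box, bound by the PAR bZIP factors and NFIL3, was searched as TTATGTAA or TTACGTAA. It was found in 1 of the 10 genes of the negative list (Per3), in 1 of 18 rhythmic outputs, in 0.965% of tested genes and in 1.06% of all windows. The ROR element, which REV-ERB and ROR proteins share, was searched by its consensus. It was found in 1 of 6 genes of the positive list (Arntl), in 0.217% of tested genes and in 0.384% of all windows. Both strands were searched, and none of the matches shown overlap. Of the called genes with a window, an E-box was present in 12.3% of 803 higher and 16.1% of 720 lower genes. A D-box was present in 1.25% and 1.81%, and a ROR element in 0.498% and 0.139%. A match of letters is a description, and no binding was measured. The stretches are written 5′ to 3′ on the strand of the gene, with the matched letters in capitals. For Ciart (minus strand, chr3:95882259-95882368) 3 E-boxes begin 116, 58 and 44 bases before the start. For Tef (plus strand, chr15:81802513-81802572) the E-box begins 127 bases before the first of 2 annotated starts, and for Bhlhe41 (minus strand, chr6:145865541-145865600) 153 bases before the start. For Per3 (minus strand, chr4:151044801-151044890) 2 D-boxes begin 205 and 158 bases before the start. For Arntl (plus strand, chr7:113207528-113207554) the ROR element lies just downstream, from base 27 of the transcript.
Ciart: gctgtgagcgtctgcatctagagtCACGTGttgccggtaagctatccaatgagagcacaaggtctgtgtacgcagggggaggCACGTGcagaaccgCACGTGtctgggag
Tef: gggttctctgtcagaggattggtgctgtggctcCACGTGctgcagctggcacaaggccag
Bhlhe41: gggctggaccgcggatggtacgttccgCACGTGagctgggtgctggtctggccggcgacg
Per3: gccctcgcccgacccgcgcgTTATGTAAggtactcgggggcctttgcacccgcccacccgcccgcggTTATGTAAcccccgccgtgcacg
Arntl: ggaaggcagAAAGTAGGTCAgggacgg

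Rhythmic outputs of the liver clock moved mostly down. Of 24 such genes 14 were called lower and 2 higher, with a median change of −1.08. Wee1, the cell cycle kinase gene under E-box control, stood at 16.9, 11.1, 16.1, 11.2 and 17.0 CPM in young and 1.34, 1.13, 1.24, 1.52 and 1.56 CPM in old mice, and the change was −3.41 (SE 0.18). Usp2, a deubiquitinase gene, fell from 37.0, 32.3, 42.2, 29.9 and 44.01 to 1.37, 2.59, 4.72, 3.56 and 1.948 CPM (change −3.71, SE 0.30). Both sets of values lay far apart. Among metabolic outputs, Gys2, the liver glycogen synthase, changed by −1.87 (SE 0.16), Coq10b, a coenzyme Q binding protein, by −2.27 (SE 0.21) and Alas1, the first enzyme of heme synthesis, by −1.94 (SE 0.21). Upp2, a uridine phosphorylase, changed by −2.23 (SE 0.25), Nampt, which makes the NAD+ precursor NMN, by −1.02 (SE 0.17), and Por, the electron donor of the microsomal P450 enzymes, by −0.92 (SE 0.17). Rgs16 (−2.03) and Cys1 (−1.75) were lower without overlap, and St3gal5, Tspan4, Cyp2a5 and Rbm3 were lower with overlapping ranges. Higher were Slc45a3 (1.78, SE 0.25) and the vasopressin receptor Avpr1a (0.88, SE 0.23), whose call was lost when any of 4 single mice was left out. The other 8 genes were not called, among them Cyp7a1, the rate-limiting enzyme of bile acid synthesis, at 141 ± 70.2 CPM in young and 141 ± 27.9 CPM in old mice (SD, n = 5 each), the heat shock genes Hspa8, Hspa1b and Hsph1, Cirbp, Elovl3, Lonrf3 and Tsc22d3, with changes from −0.35 to 0.93.

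Outside the clock lists, 1958 genes were called, 1072 higher and 886 lower. These lists do not hold every rhythmic gene, and which of the genes below follow the time of day was not tested. The 12 higher protein-coding genes with the smallest p each had all old mice above all young mice. Loxl4 (chr19:42593982-42612813), a lysyl oxidase that crosslinks collagen and elastin, had the smallest p of all 15554 genes, with 1.03, 0.921, 0.967, 1.76 and 1.28 CPM in young and 38.8, 43.5, 33.1, 37.8 and 31.9 CPM in old mice. The change was 4.96 (SE 0.20, adjusted p = 3.6e-08). Ppard (chr17:28232700-28301474), the gene of the fatty acid sensor PPAR-delta, had 5.38, 6.73, 6.74, 5.2 and 5.7 CPM in young and 44.8, 33.2, 48.4, 34.3 and 35.3 CPM in old mice, a change of 2.72 (SE 0.15). Mitochondrial functions were represented by Coq8a and Clpx. Coq8a (chr1:180165238-180199602), needed for coenzyme Q synthesis, rose from 99.8, 121, 125, 122 and 106 to 629, 546, 746, 588 and 692 CPM (change 2.48, SE 0.15). Clpx, the unfolding subunit of a matrix protease that also acts on heme synthesis, rose from 57.2, 62.3, 64.5, 64.8 and 52.2 to 240.1, 298, 221, 293 and 292 CPM (change 2.16, SE 0.14). In each case the old mice stood at least 3 times above the young ones.

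Chka (chr19:3851773-3894369), the choline kinase that opens phosphatidylcholine synthesis, had 8.65, 7.24, 9.25, 8.84 and 7.01 CPM in young and 44.1, 46.99, 42.6, 30.8 and 39.6 CPM in old mice, with a change of 2.32 (SE 0.14). Ddc, the decarboxylase that makes dopamine and serotonin, was at 15.0 ± 4.36 CPM in young and 95.6 ± 6.28 CPM in old mice (SD, n = 5 each), a change of 2.67 (SE 0.19). Cdx4, a homeobox gene of the embryonic body axis, was low in all mice and rose from 0.179, 0.321, 0.275, 0.31 and 0.257 to 3.44, 3.53, 4.24, 3.71 and 2.76 CPM. Regulators of small GTPases included Asap2 (2.54, SE 0.17) and Srgap3 (3.41, SE 0.25). The adhesion molecule gene Lrfn3 changed by 2.29 (SE 0.18), the ubiquitin ligase Rnf144a by 2.24 (SE 0.18) and the inositol phosphate kinase Itpk1 by 1.22 (SE 0.10). The largest increases at a mean of at least 1 CPM were those of A1bg, Loxl4, Adcy1, Cyp3a41b and Serpinb1a. Serpinb1a, an inhibitor of neutrophil proteases, stood at 5.1, 3.43, 2.28, 7.23 and 9.81 CPM in young and 50.4, 109, 134, 76.1 and 104 CPM in old mice (change 4.09, SE 0.40). Adcy1, an adenylyl cyclase gene, changed by 4.30 (SE 0.48). Cyp3a41b had 2.29, 172, 36.2, 32.9 and 1.61 CPM in young and 623, 875, 972, 1326 and 525 CPM in old mice. Its call was lost when any of 7 single mice was left out, and its reads can be shared with a near-identical copy, so its level is uncertain.

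Lower in old liver was led by Rdh9, a retinol dehydrogenase of the short-chain family (chr10:127776386-127792697), with 139.9, 184, 169.7, 268 and 262 CPM in young and 49.1, 34.2, 36.1, 44.7 and 30.8 CPM in old mice (change −2.39, SE 0.21, adjusted p = 2.03e-05). Nrg4 (chr9:55220222-55326844), a secreted ligand of the ERBB receptor family, had 13.8, 25.0, 18.1, 9.23 and 15.2 CPM in young and 3.79, 3.54, 3.35, 2.4 and 2.69 CPM in old mice (change −2.36, SE 0.24). Pcsk4, a proprotein convertase best known from germ cells, fell from 17.9, 34.0, 16.3, 16.1 and 25.0 to 3.29, 3.28, 2.86, 1.32 and 1.48 CPM. The ranges of the 3 genes did not overlap. Mknk2, a kinase of the cap-binding factor eIF4E, changed by −1.29 (SE 0.13), and the nucleolar gene Gnl3 (nucleostemin) by −1.15 (SE 0.12). Il15ra, the IL-15 receptor subunit, changed by −1.36 (SE 0.15), Fkbp11, a prolyl isomerase of the ER, by −1.87 (SE 0.21), Ociad2 by −1.77 (SE 0.19) and Abhd17b, a depalmitoylase, by −1.13 (SE 0.12). Hsd3b3, a steroid dehydrogenase, changed by −1.31 (SE 0.15). The 5 largest decreases at the same mean level were those of Slco1a1, Cib3, Hsd3b5, Clec2h and Ccne1. Cib3 had 32.8 CPM in young replicate 1, 0.621 to 2.07 CPM in the other young mice and 0.0201 to 0.128 CPM in old mice, and its call was lost without old replicate 1, 2 or 4. Clec2h, a lectin gene, stood at 20.5, 3.84, 2.24, 4.75 and 9.57 CPM in young and 0.899, 0.12, 0.167, 0.236 and 0.228 CPM in old mice (change −4.57, SE 0.76).

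**Figure D3:**
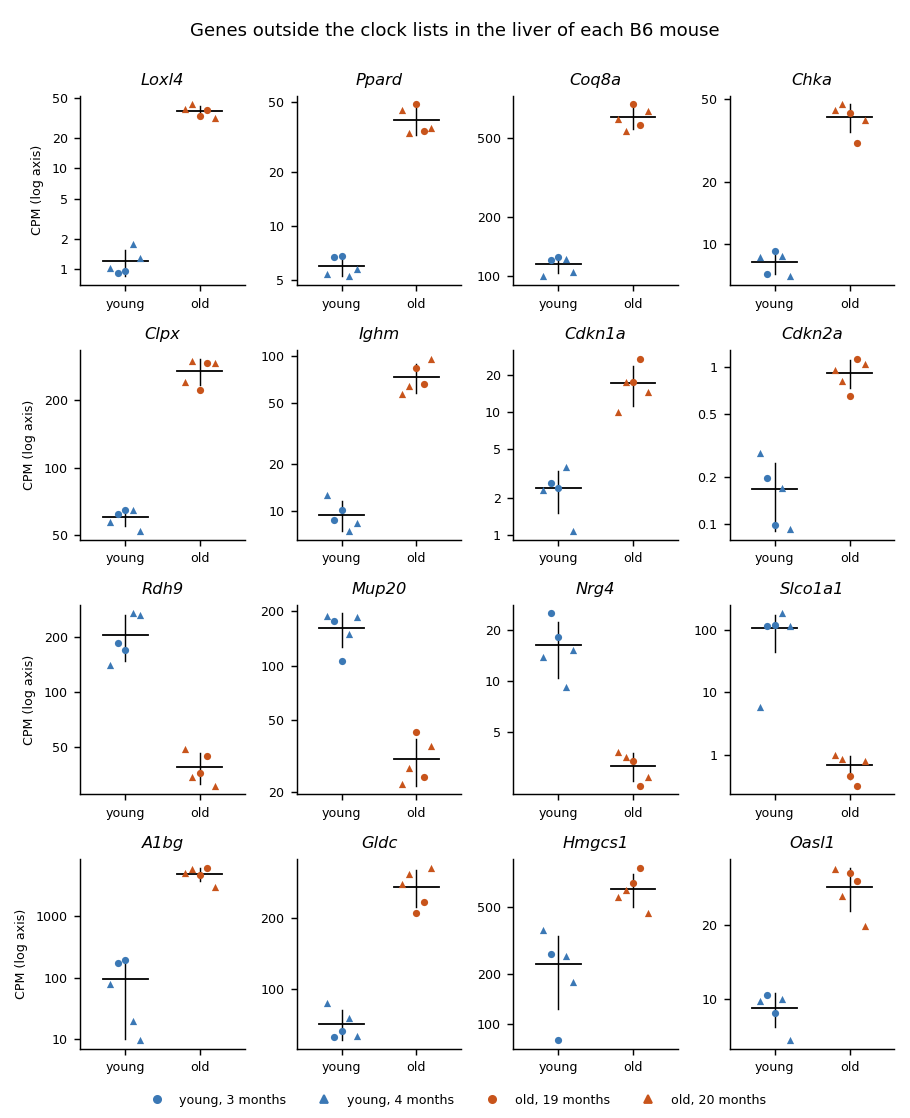
CPM on a log axis for 16 genes outside the clock lists in each B6 mouse, with young mice in blue and old mice in orange, circles for 3 or 19 months and triangles for 4 or 20 months, a horizontal line for the mean of 5 mice and a vertical line for 1 SD on either side. Loxl4, Ppard, Coq8a, Chka and Clpx lie higher in every old mouse and Rdh9, Mup20 and Nrg4 lower; for Slco1a1, young replicate 1 lies far below the other young mice.

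Genes with a sex bias in mouse liver were set apart because growth hormone pulses and sex hormones control many of them. The male-biased list of 19 genes also holds Y-linked genes, of which Uty and Kdm5d were tested and not called. Its members Ddx3y, Eif2s3y, Cyp4a12a, Cyp4a12b and Moxd1 did not pass the filter on low counts. Xist, on the female-biased list, was not tested. Of 14 tested male-biased genes 6 were lower and none higher, with a median of −0.86, and of 18 tested female-biased genes 6 were higher and 2 lower, with a median of 0.56. Over all genes tested the median was −0.02, and 6.93% were higher and 5.85% lower. The counts of these and the following lists stand against those shares. Mup20 (chr4:62050234-62054158), which encodes the pheromone protein darcin, had 188, 176, 106, 149 and 185 CPM in young and 22.2, 26.9, 43.0, 24.0 and 35.9 CPM in old mice (change −2.40, SE 0.22). Slco1a1, an organic anion transporter, had 5.71, 114, 120.3, 182 and 114 CPM in young and 0.976, 0.863, 0.46, 0.319 and 0.782 CPM in old mice (change −7.28, SE 0.86). The old mice were all under 1 CPM, and young replicate 1 lay between them and the other young mice. Hsd3b5, a steroid dehydrogenase, changed by −5.54 (SE 0.72) and Cyp2d9, a P450, by −2.71 (SE 0.41). Mup3 (−1.66, SE 0.43) and Serpina1e (−3.27, SE 0.83) were also lower, and like Mup20 they belong to families of near-identical genes between which reads can be split. Of the 20 tested Mup genes, a group taken from the annotation after the values were seen, 3 were lower (Mup20, Mup21 and Mup3) and none higher. On the female side, A1bg, which encodes a plasma glycoprotein, had 78.7, 169.8, 192, 19.8 and 9.51 CPM in young and 5041, 5803, 4733, 6117 and 3055 CPM in old mice (change 5.72, SE 0.80). Sulfotransferase Sult2a1 changed by 2.05 (SE 0.46), the steroid hydroxylase Cyp17a1 by 1.30 (SE 0.25), and Cyp2b9 by 0.88 (SE 0.15). Prom1 and Hao2 were higher as well, whereas Cyp2b13 (−1.21) and Sult3a1 (−3.76) were lower. Without the 2 young mice of 3 months, 4 male-biased genes were lower and 7 female-biased genes higher, and without old replicates 1 and 2 both numbers were 4, with 1 female-biased gene lower.

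The growth hormone and IGF axis had 4 of 20 members higher and 1 lower, with a median of −0.12. Stat5a and Stat5b, the transcription factors that carry the growth hormone signal, changed by 1.08 (SE 0.13) and 0.64 (SE 0.15). Stat5a stood at 5.94, 8.32, 8.14, 8.12 and 8.39 CPM in young and 14.9, 16.1, 18.2, 17.2 and 15.6 CPM in old mice. Irs2, an adaptor of the insulin receptor, changed by 1.38 (SE 0.24) and Igfbp1, a secreted binder of IGF1, by 2.63 (SE 0.47), from 20.7, 40.5, 31.5, 7.85 and 16.1 to 123, 62.5, 92.8, 251 and 191 CPM. Socs2, a feedback inhibitor of the growth hormone receptor, was lower with −1.25 (SE 0.35), a call lost without young replicate 4 or 5 or old replicate 2 or 4. Igf1 itself was at 595 ± 100.3 CPM in young and 599 ± 114 CPM in old mice (SD, n = 5 each) and was not called.

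In the list of amino acid breakdown and the urea cycle, 13 of 37 genes were higher and 1 lower. The median was 0.54, and 31 of the 37 had a positive change. Gldc, of the glycine cleavage system, stood at 87.9, 63.1, 66.9, 75.6 and 63.5 CPM in young and 280.0, 308, 211, 235 and 327 CPM in old mice (change 1.93, SE 0.16). Its partner Amt was higher too (1.60, SE 0.25). Cth and Cbs, the enzymes that turn homocysteine into cysteine, changed by 1.49 (SE 0.22) and 1.49 (SE 0.23), and Got1, an aspartate aminotransferase, by 1.11 (SE 0.16). Higher were also Hal, Bhmt, Ass1, Kynu, Nags, Gls2, Asl and Hgd. Tdo2, which opens tryptophan breakdown, was lower (−0.84, SE 0.21), a call lost without young replicate 5 or old replicate 1 or 4. Without the 2 young mice of 3 months 8 members were higher, and without old replicates 1 and 2 the number was 10. The periportal list, genes expressed near the portal inflow, shares Hal, Ass1 and Gls2 with it. Of its 14 genes 5 were higher, Ctsc (1.06, SE 0.21) and the immunoglobulin receptor Pigr (0.80, SE 0.18) being the others, and none was lower. Hal stood at 344, 141, 100, 160.4 and 245 CPM in young and 641, 609, 681, 548 and 647 CPM in old mice. Without the young mice of 3 months, 2 periportal genes were called. Of 15 pericentral genes, expressed near the central vein, 4 were lower and 2 higher. Cyp2e1, the ethanol-oxidizing P450, changed by −1.12 (SE 0.24), the glutamate transporter Slc1a2 by −1.02 (SE 0.23), and the Wnt receptor ligases Rnf43 and Znrf3 by −0.81 (SE 0.19) and −0.69 (SE 0.19), while the amino acid transporter Slc1a4 (1.44) and the Wnt target Axin2 (0.61) were higher. The counts were 2 lower and 1 higher without old replicates 1 and 2, and 1 was higher without the young mice of 3 months and without any of 8 single mice, all but young replicate 5 and old replicate 5.

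Cholesterol synthesis and uptake had 7 of 20 genes higher and none lower, with a median of 0.52 and a positive change in 17. Hmgcs1, which makes HMG-CoA, had 365, 262, 80.1, 257 and 179 CPM in young and 577, 634, 694, 858 and 462 CPM in old mice, with a change of 1.50 (SE 0.32). The young mice spread widely, replicate 3 being the lowest, and did not reach the old ones. Dhcr7, the last enzyme of the pathway, changed by 1.22 (SE 0.19), Mvd by 1.63 (SE 0.34), and Srebf2, the gene of the transcription factor SREBP2 that drives the pathway, by 0.83 (SE 0.15). Fdft1 and Fdps, which act earlier in the pathway, were higher as well, by 0.73 and 0.74. The number of higher genes was 4 without young replicate 3, 4 or 5 or old replicate 4. Among genes of bile acids and sterol export, the sterol transporter pair Abcg5 (−1.44, SE 0.16) and Abcg8 (−1.12, SE 0.26) was lower. Abcg5 stood at 72.4, 76.4, 72.7, 96.5 and 108 CPM in young and 32.2, 28.2, 28.3, 27.2 and 40.8 CPM in old mice. The bile salt export pump Abcb11 changed by 1.19 (SE 0.18), and Hsd3b7 (0.93) and the FGF15 receptor Fgfr4 (0.69, call lost without any of 6 single mice) were higher, so that of 21 genes 3 were higher and 2 lower. The number of higher genes was 1 without young replicate 3 or 5, old replicate 3, 4 or 5 or both young mice of 3 months, and 1 gene was lower without old replicates 1 and 2.

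Genes of glucose and fat metabolism moved in both directions. In the gluconeogenesis and glycogen list 4 of 15 were higher and 2 lower. Ppp1r3c, which targets a phosphatase to glycogen, stood at 26.8, 26.8, 12.7, 26.0 and 36.4 CPM in young and 119, 135, 87.5, 79.6 and 139 CPM in old mice (change 2.12, SE 0.25). G6pc, the glucose-6-phosphatase, changed by 2.43 (SE 0.58), Got1 and the glycogen phosphorylase Pygl were higher, and Gys2 and the transporter Slc37a4 (−0.64, SE 0.15) were lower. Slc37a4 was lost without young replicate 5. The counts were 2 higher and 1 lower without old replicates 1 and 2. Pck1, the classical gluconeogenic enzyme, was at 1525 ± 549 CPM in young and 1789 ± 589 CPM in old mice (SD, n = 5 each). Of 20 glycolysis genes 4 were higher, Eno1 (0.73, SE 0.19), Tpi1, Pfkl and Pkm, and Pfkfb3 (−2.02, SE 0.32) was lower. None of the 4 increases kept its call without young replicate 4, and the number was 1 without young replicate 2 or 5 or old replicate 4, and 2 without old replicate 5. Of 25 genes of fatty acid oxidation 2 were higher and 4 lower. Pdk4, the kinase that shuts off pyruvate dehydrogenase, had 3.99, 5.94, 4.94, 2.34 and 2.68 CPM in young and 22.6, 19.2, 16.2, 34.4 and 26.8 CPM in old mice (change 2.58, SE 0.28), and Cpt2 changed by 0.71 (SE 0.14). Lower were Cpt1a, the gate of mitochondrial fatty acid import (−1.01, SE 0.21), Cyp4a31 (−1.40, SE 0.33), Fabp1 (−1.20, SE 0.28) and Ppara (−1.04, SE 0.27), the gene of the fasting sensor PPAR-alpha. Without old replicates 1 and 2 none of these 4 decreases was called. In fatty acid and triglyceride synthesis, Acly (0.73, lost without any of 7 single mice) was higher and Lpin1 (−1.82, SE 0.40) lower among 20 genes. Without old replicates 1 and 2 neither kept its call. The counts of this synthesis list are near the shares over all genes tested, 6.93% higher and 5.85% lower.

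Xenobiotic metabolism was split, with 9 of 39 genes higher and 8 lower and a median of 0.12. The glutathione transferases Gstm4 (1.45, SE 0.20), Gstm2 and Gstm3 and the quinone reductase Nqo1 (0.90, SE 0.15) were higher, with the P450 genes Cyp2b9, Cyp2b10, Cyp2c29, Cyp2c37 and Cyp3a13. Lower were Por, Cyp3a11, Cyp2a5, Cyp2e1, Cyp2b13, Cyp1a1, Cyp2c54 and Nr1i2, the gene of the xenobiotic receptor PXR. Cyp3a11 was at 2744 ± 379 CPM in young and 815 ± 436 CPM in old mice (SD, n = 5 each). The numbers were 4 higher and 4 lower without the 2 young mice of 3 months, and 8 and 4 without old replicates 1 and 2.

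**Figure D4:**
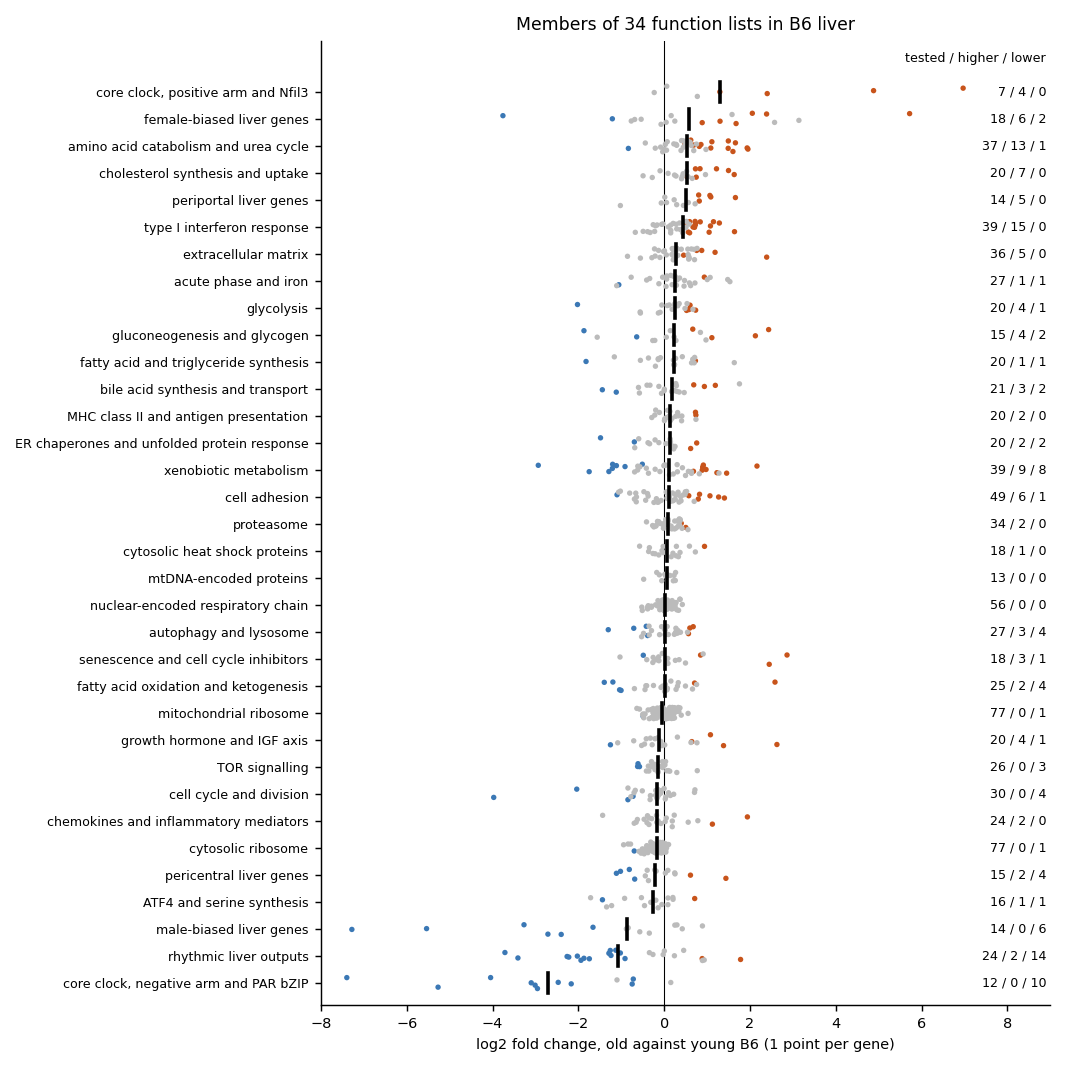
Log2 fold changes of old against young B6 for the tested members of 34 function lists, 1 point per gene, with genes called higher in orange, genes called lower in blue, genes not called in grey and the median of each list as a black bar; the numbers at the right give members tested, called higher and called lower. The clock lists lie at both ends, from −2.71 for the negative arm to 1.30 for the positive arm, and the lists of mitochondrial and ribosomal genes lie near 0.

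The type I interferon response had 15 of 39 genes higher and none lower, with a median of 0.43. Oasl1, an oligoadenylate synthetase-like gene, stood at 9.83, 10.4, 8.77, 9.94 and 6.78 CPM in young and 33.6, 26.1, 32.6, 30.0 and 19.8 CPM in old mice (change 1.64, SE 0.17). Cmpk2 had 5.48, 5.76, 6.25, 7.1 and 5.13 CPM in young and 16.6, 12.1, 7.49, 15.6 and 14.0 CPM in old mice (change 1.15, SE 0.19), and Ifit1 changed by 1.05 (SE 0.19). Irf9, a subunit of the transcription factor that drives these genes, changed by 0.72 (SE 0.13). The number of higher genes was 8 without old replicates 1 and 2, 9 without old replicate 1 or 4 and 10 without the young mice of 3 months. In antigen presentation, the peptide transporters Tap2 (0.74, SE 0.17) and Tap1 (0.73, lost without any of 7 single mice) were higher among 20 genes. Among 24 chemokines and inflammatory mediators, Cxcl14 (1.12, SE 0.23) and Il1b (1.94, SE 0.43) were higher. The acute phase list of 27 genes had Lbp higher (0.93, lost without any of 5 single mice) and Il1rn lower (−1.06, likewise lost without any of 5). Of all genes tested 6.93% were higher and 5.85% lower. The counts for antigen presentation, chemokines and acute phase differ little from those shares.

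Ighm (chr12:113418558-113422730), the constant gene of the IgM heavy chain, had 12.7, 8.67, 10.1, 7.43 and 8.29 CPM in young and 57.3, 64.0, 84.3, 66.7 and 96.5 CPM in old mice, a change of 2.97 (SE 0.19, adjusted p = 1.08e-06). Every old mouse was more than 4 times above the highest young mouse. The kappa constant gene Igkc, with 1.47 (SE 0.38), was called with overlapping ranges, and its call was lost without any of 3 single mice. Of 111 tested immunoglobulin genes, a group taken from the annotation after the values were seen, 20 were higher and none lower, with a median of 0.94. Variable genes are similar in sequence and reads can be split between them. The other 14 of 16 B and plasma cell markers were not called, and the summed level of the list was 33.8 to 95.5 CPM in young and 106 to 213 CPM in old mice, Ighm and Igkc included. Neutrophil markers were low, at a sum of 2.37 to 9.84 CPM in young and 7.55 to 16.7 CPM in old mice. Mpo, Elane and Ngp, 3 of 7 tested, were higher, and none of these kept its call without old replicates 1 and 2 or without the young mice of 3 months. Of the macrophage markers Trem2 was called higher (0.69, lost without any of 8 single mice) among 16 genes, with a summed level of 635 to 1408 CPM in young and 540.2 to 1149.9 CPM in old mice. Of 15 tested T and NK cell markers Gzma was lower (−1.21, SE 0.30), a call lost without old replicate 2 and without the young mice of 3 months, and 2 were lower without old replicate 3. No marker was called among 8 of dendritic cells, 7 of erythroid cells, 10 of sinusoidal endothelium, 10 of stellate cells and fibroblasts, 9 of cholangiocytes, 3 tested of exocrine pancreas and 1 tested of skeletal muscle. In these lists an unadjusted p under 0.05 was found for 3 stellate, 2 cholangiocyte and 1 pancreas marker, DESeq2 called 1 stellate and 1 cholangiocyte marker, and limma-voom 1 stellate marker. Of all genes tested 6.93% were higher and 5.85% lower. Single calls, as in the macrophage and the T and NK cell lists, are near those shares. How far immune cells in the tissue bear on the changes above was not tested.

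Of the cell cycle inhibitors Cdkn1a, Cdkn2a and Cdkn1c were higher, and 3 cyclin genes were lower. Cdkn1a, the gene of p21, stood at 2.31, 2.64, 2.42, 3.54 and 1.07 CPM in young and 10.02, 17.6, 17.5, 27.1 and 14.6 CPM in old mice (change 2.86, SE 0.31). Cdkn2a, the gene of p16 and p19ARF, had 0.282, 0.197, 0.0989, 0.169 and 0.0924 CPM in young and 0.967, 0.813, 0.656, 1.13 and 1.05 CPM in old mice (change 2.45, SE 0.33). Its level was low in both groups, and the ranges did not overlap. Cdkn1c, the gene of p57, changed by 0.85 (SE 0.20), and Hmgb1, a chromatin protein gene, was lower (−0.49, lost without any of 3 single mice), so that of 18 genes of senescence and cell cycle inhibition 3 were higher and 1 lower. Without young replicate 1, 5 were higher. Of 30 genes of cell cycle and division 4 were lower and none higher. Ccne1, the gene of cyclin E1, had 1.26, 0.921, 4.33, 2.3 and 1.74 CPM in young and 0.119, 0.131, 0.153, 0.201 and 0.0569 CPM in old mice (change −3.98, SE 0.46). Ccne2 changed by −2.04 (SE 0.38), Ccnd1 by −0.85 (SE 0.22) and Cdk2 by −0.73 (SE 0.19), the last lost without any of 5 single mice. Without old replicate 4, 2 of these genes were called.

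Of 36 genes of the extracellular matrix 5 were higher and none lower, with a median of 0.27 and a positive change in 28. Col15a1, a basement membrane collagen, stood at 4.42, 5.96, 4.45, 2.48 and 3.57 CPM in young and 26.3, 27.6, 16.3, 24.9 and 14.3 CPM in old mice (change 2.39, SE 0.25). The membrane protease Mmp14 changed by 0.87 (SE 0.16), the matricellular gene Ccn2 by 1.18 (SE 0.23), the laminin chain Lamb1 by 0.76 (SE 0.18) and Col14a1 by 0.45 (SE 0.12). Without young replicate 1, 12 matrix genes were higher, and without the young mice of 3 months 3 were. Of 49 tested cell adhesion genes 6 were higher and 1 lower. The tight junction gene Cldn1 (1.40, SE 0.22) and the integrins Itga6 (1.27, SE 0.19), Itga3, Itgb5 and Itga5 were among the higher genes, and P-selectin (Selp, −1.10, SE 0.19) was lower. Without old replicate 3, 11 adhesion genes were higher.

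Genes of organelles and of protein synthesis showed few calls, where 6.93% of all genes tested were higher and 5.85% lower. None of 13 mtDNA-encoded protein genes (smallest adjusted p = 0.317 in edgeR) and none of 56 respiratory chain genes encoded in the nucleus (smallest 0.269) was called, and their medians were 0.06 and 0.03. No member of either list had an unadjusted p under 0.05, and DESeq2 and limma-voom called 0. Of 77 genes of the mitochondrial ribosome Mrpl9 was lower (−0.49, SE 0.11), with a median of −0.04, and the number was 10 without old replicate 3 and fell to none without old replicates 1 and 2. Of 77 genes of the cytosolic ribosome Rpl12 was lower (−0.70, SE 0.17), and the median was −0.17, with 8 genes above 0. The call of Rpl12 was lost without old replicate 2, without both old replicates 1 and 2 and without the young mice of 3 months. Without old replicate 3, 3 genes of the list were lower. Of 26 genes of TOR signalling 3 were lower and none higher: Rps6kb1, the S6 kinase (−0.62, SE 0.16), Eif4b (−0.61, SE 0.17) and Mtor (−0.58, SE 0.18). Mtor stood at 30.5, 25.0, 30.0, 48.0 and 41.7 CPM in young and 22.9, 21.5, 21.8, 22.3 and 29.0 CPM in old mice with overlapping ranges, its call was lost without any of 7 single mice, and without old replicates 1 and 2 no TOR gene was called. Of 34 proteasome genes Psmd1 (0.50, lost without old replicate 4) and Psmd11 (0.40, lost without any of 6 single mice) were higher, with 4 higher without old replicate 3 and none without old replicate 4 or without the young mice of 3 months. The autophagy and lysosome list had 3 of 27 higher (Atg7, Lipa and Sqstm1, none of them called without the young mice of 3 months) and 4 lower, the initiating kinase Ulk1 changing most, by −1.31 (SE 0.28), with Gabarapl1, Mcoln1 and Atg16l1. Sqstm1 was lost without any of 4 single mice and Lipa without old replicate 4. The number of lower genes was 6 without old replicate 3, 1 without young replicate 4 or 5 or old replicate 2 or 4, 2 without old replicate 1 or 5, and none kept its call without both old replicates 1 and 2. Of 20 ER chaperones and genes of the unfolded protein response Calr (0.76, SE 0.18) and Pdia4 (0.61, lost without any of 7 single mice) were higher, and Herpud1 (−1.49, SE 0.22) and Xbp1 (−0.70, SE 0.14) lower. Without young replicate 3, 4 of this list were higher. Of 16 genes of the ATF4 response Shmt2 (0.71) was higher and Trib3 (−1.44) lower, and the call of Shmt2 was lost without young replicate 3 and without the young mice of 3 months. Without young replicate 4 or 5, 2 genes of this list were lower. Of 18 cytosolic heat shock genes Bag3 (0.94) was higher, with 5 higher without young replicate 3, 4 without the young mice of 3 months and none without old replicates 1 and 2.

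Old and young mice were also compared in B6-mtAKR, with 5 mice each, none of them shared with the B6 groups. The young B6-mtAKR mice were 3 months (2 mice) or 4 months old (3 mice). All 5 old ones were 19 months old, whereas 3 of the old B6 mice were 20 months old. Their time of sampling is not given either, so it cannot be told apart from age in this strain. In B6-mtAKR, 569 of 15408 genes were higher (3.69%) and 462 lower (3%) in old mice. Of the 1973 genes called in B6 and tested in both, 1948 changed in the same direction in B6-mtAKR, 98.7% against 78.5% of all 15269 common genes, and 636 were called in both, which is 32.2% of the B6 calls and 61.7% of the B6-mtAKR calls. Across all common genes Pearson's r of the changes was 0.727, a description across genes, which are not independent replicates. Of the 30 genes of the clock lists called in B6, 30 had the same sign in B6-mtAKR and 19 were called there, and the 11 others included Clock, Nr1d1 and Per2. In B6-mtAKR, Arntl changed by 3.71 (SE 0.58), Npas2 by 5.45 (SE 0.58), Dbp by −5.91 (SE 0.58), Tef by −2.34 (SE 0.25) and Per3 by −3.31 (SE 0.57). Loxl4 changed by 3.41 (SE 0.46), Slco1a1 by −6.51 (SE 0.62), Cdkn1a by 2.67 (SE 0.37) and Ighm by 2.43 (SE 0.35), each called in both strains. Cib3 had −6.62 (SE 1.55) in B6, or −3.70 without young replicate 1, and −1.07 (SE 1.24) in B6-mtAKR.

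Whether the change with age differed between the strains was tested as an interaction over all 20 mice. No gene of 15403 was called in edgeR, with a smallest adjusted p of 0.076 and 446 genes, or 2.90%, at an unadjusted p under 0.05. In DESeq2, 1 gene was called, Ide (insulin-degrading enzyme, named after its values were seen), and it also had the smallest p in edgeR, where the log2 change in B6-mtAKR minus that in B6 was −1.03 (SE 0.17). Ide stood at 37.6, 42.0, 51.0, 47.2 and 45.9 CPM in young and 99.8, 81.0, 81.6, 84.9 and 82.9 CPM in old B6 mice. In B6-mtAKR the values were 69.7, 75.0, 72.6, 69.3 and 67.1 CPM in young and 56.1, 80.3, 51.5, 77.0 and 68.0 CPM in old mice. Old mice were higher than young mice in B6, while in B6-mtAKR the ranges overlapped.

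**Figure D5:**
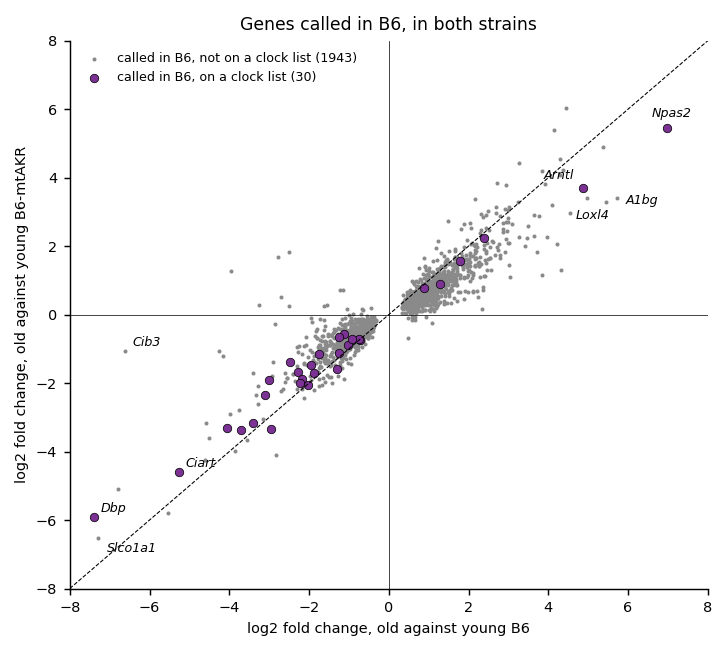
Log2 fold changes of old against young mice in B6 (horizontal axis) and in B6-mtAKR (vertical axis) for the genes called in B6, 1 point per gene, with members of the 3 clock lists in purple and a dashed line where both changes are equal. Of 1973 genes 1948 have the same sign in both strains, Npas2 and Dbp lie at opposite ends, and Cib3, at −6.62 in B6 (−3.70 without young replicate 1), lies off the line.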

How the data were processed

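Liver RNA of 20 mice was sequenced as 75-nt read pairs from stranded total RNA libraries on a HiSeq4000, with 4 samples per lane. Per the labels, the authors quantified transcripts of mm10 with kallisto 0.43.0 and deposited, for each mouse, estimated counts and TPM for 96626 transcripts. Estimated counts were summed to genes with GENCODE M21 and rounded to whole numbers; 1325 transcripts were not in that annotation. Estimated counts split reads between similar sequences, so near-identical genes are uncertain. TPM, as deposited by the authors, served only for the counts from length-scaled TPM.

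A gene entered when 47% or more of the 10 B6 mice had 5 or more counts, and was tested with edgeR 4.0.16 (TMM, robust quasi-likelihood) in R 4.3.3, at a Benjamini-Hochberg adjusted p under 0.05. Old and young B6 mice were compared without covariates, and the interaction of age and strain was fitted over all 20 mice. Alternatives used DESeq2 1.42.0, limma 3.58.1 and sva 3.50.0. The code was tested on simulated data. The labels do not say how replicates were sampled beyond 1 liver each, and p-values measure the spread between these mice. No pair of libraries of one group agreed within counting noise.

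Genes were named by rule: in each direction the 12 with the smallest p and the 5 with the largest change among called protein-coding genes outside the clock lists, with a log2 change of at least 1 and a mean of at least 1 CPM, every clock list gene, and up to 4 called members of each other list with the smallest p. Other members of lists were chosen for naming after seeing their values. The comparison and the gene lists were chosen with earlier results of these data known. A few members of the lists are counted but not reported here by name.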

Additional observations from a re-analysis of the deposited data

Results flagged for a closer look

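In groups of 5 mice, a sample was singled out when its gap to the nearest other mouse, divided by the range of the group, was above 0.71. For genes, gap and range were taken on the log scale after 0.5 was added to the CPM. For library measures they were taken on the plain values. The CPM printed below are not logged. This held for 26 of 342 groups (7.60%), where chance gives about 1 in 20. Old replicate 3 was the lowest old mouse for Asap2 (0.727 of the range), Clock (0.828), Rora (0.832) and Nampt (0.773), and the highest for Slc37a4 (0.807), Shmt2 (0.905) and Selp (0.779). Young replicate 1 was the lowest young mouse for Slco1a1 (0.862), at 5.71 CPM against 114 to 182 CPM, for Hsd3b5 (0.744), St3gal5 (0.722) and Stat5a (0.903), and the highest for Cib3 (0.755), at 32.8 CPM against 0.621 to 2.07 CPM, and for Mpo (0.874). Old replicate 1 was the lowest for Per1 (0.92), at 3.40 CPM against 13.6 to 15.3 CPM, and the highest for Clec2h (0.789). Young replicate 3 was the lowest for Ociad2 (0.779) and Hmgb1 (0.868), and young replicate 2 for Fgfr4 (0.91) and Lbp (0.885). Young replicate 5 was the highest for Tef (0.76), young replicate 4 for Clock (0.714), and old replicate 5 for Abcg8 (0.732) and Mtor (0.78). Old replicate 2 was the lowest for Avpr1a (0.75). Among library measures, young replicate 4 detected the fewest transcripts of the young group (45829, 0.713 of the range) and young replicate 2 had the largest share of mtDNA-encoded counts (17.7%, 0.892 of the range).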

How the results depend on the processing

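Under RLE scaling, TMM without mtDNA-encoded genes, no filter on low counts, a filter of at least 10 counts in every mouse, DESeq2, limma-voom and counts from length-scaled TPM, the genes called higher numbered 946 to 1512 and those called lower 758 to 1274, within 1.5 times the values reported. With 1 surrogate variable 1449 were higher and 1500 lower. Leaving out single mice gave 777 to 1291 higher and 553 to 1100 lower genes. Without the 2 young mice of 3 months 718 were higher, and without old replicates 1 and 2, 641 were higher and 391 lower; both alternatives were chosen after seeing the data, and both test fewer mice. Replicate numbers gave no sign of pairing young with old B6 mice. Deviations from the group mean correlated at 0.0043 to 0.103 in 5 same-numbered pairs and at −0.276 to 0.183 in 20 differently numbered pairs. Over all groups these ranges were −0.342 to 0.411 and −0.327 to 0.581. Structure shared by replicates 1 and 2 of the old groups, as in transcripts detected, was not tested by this. A fit with the replicate block called 878 higher and 677 lower genes, of which 1443 were shared with the reported calls. Of 154 called genes named by rule, 123 kept their call in all 10 fits that left out 1 mouse, and 31 lost it in at least 1. The interaction had 0 to 1 called gene when single mice were left out, with 1 in DESeq2. With the clock index as a covariate 0 genes were called higher and 0 lower by edgeR (1308 at an unadjusted p under 0.05), since the index separates the ages without overlap. The index correlated with age group at Pearson's r = 0.992 over the 10 mice. The age term of that fit is therefore poorly determined, and neither its signs nor its sizes can be read as effects of age. In that fit 39 named genes took the opposite sign, none of them called, with log2 values of A1bg −0.72, Cyp3a41b −18.6, Mup20 0.25, Ociad2 0.40, Cib3 18.6, Clec2h 5.52, Hlf 0.13, Nr1d1 4.49, Bhlhe41 6.00, Dbp 1.77, Clock −0.42, Arntl −0.97 and Nfil3 −4.71. The same held for Por 0.056, Avpr1a −0.47, Slc45a3 −4.73, Gys2 0.11, Rbm3 0.62, Acly −1.68, Pdk4 −0.97, Cpt1a 2.68, Sult2a1 −4.73, Igfbp1 −2.91, Stat5b −0.17, Trib3 3.61 and Pdia4 −0.73. The rest were Bag3 −0.35, Mrpl9 0.011, Rpl12 0.30, Psmd1 −0.0081, Psmd11 −0.41, Eif4b 0.51, Il1rn 3.26, Cmpk2 −1.35, Ifit1 −0.24, Il1b −2.32, Hmgb1 0.12, Rnf43 1.81 and Ctsc −0.65. In no other alternative did a named call change sign. Depth was alike in both groups. For genes under 1 CPM the values rest on few counts, and their changes are the least precise.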
